A study of Vulpes vulpes with 48 samples.

Results

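The genes described here are the 200 with the largest excess of prefrontal cortex over basal forebrain RNA in aggressive silver foxes (Vulpes vulpes), out of 12695 genes counted in both regions. Each gene was ranked by its mean log2(CPM+1) over 12 aggressive cortex libraries minus its mean over 12 aggressive forebrain libraries, where CPM is the count per 1000000 counts of the library. All foxes were males of 1.5 years from a line bred for tame behaviour or a line bred for aggressive behaviour, and each library holds poly(A) RNA of right prefrontal cortex or right basal forebrain of such a fox. Tame foxes gave 12 cortex and 10 forebrain libraries with a column of counts, and 2 further labelled tame forebrain samples were not analysed here. The lines have no unselected control group among the samples, and the labels do not say whether a cortex and a forebrain library came from the same fox. The regions were counted in separate tables, so region and table cannot be told apart.

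The prefrontal cortex is a layered sheet in which most neurons are glutamatergic projection neurons, joined by GABA-releasing interneurons and glia. The basal forebrain lies below it and holds cholinergic and GABA-releasing neurons beside the ventral striatum and septum, so dissected pieces can differ in which nuclei they contain. Genes higher in cortex than in subcortical tissue are in general known to include transcription factors and synaptic genes of projection neurons. Which of the 200 genes belong to that class could not be read here: the tables give dog Ensembl identifiers without symbols, and 0 of 13202 identifiers matched the fox gene table at hand. For the same reason the tissue labels could not be checked against marker genes, and genes are given by identifier.

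Library totals ran from 6226664 to 17235571 counts in cortex and from 6248314 to 13648647 in forebrain. A group of 5 tame cortex libraries differed from the rest over many genes: in ID182, ID186, ID187, ID190 and ID191, 30.9% to 52.3% of all genes lay below the range of the 12 aggressive cortex libraries, against 4.42% to 12.3% in the other 7. Tame forebrain library ID483 held the highest forebrain value of 18.1% of all genes, against at most 7.70% in any other forebrain library. Results that rest on the 5 cortex libraries are given with and without them. In bulk tissue, fewer cells of a type and less RNA per cell cannot be told apart.

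The rule's own values in aggressive foxes are a description and carry no test. The difference ran from 1.57 to 6.04 log2 units with a median of 1.96, a 3.89-fold excess of cortex on the CPM+1 scale. Of the 200 members, 95 exceeded 2 log2 units, 18 exceeded 3 and 5 exceeded 4. The members were moderately to highly abundant in aggressive cortex: 74 had a mean of 100 CPM or more, 114 lay between 10 and 100 CPM, and 12 lay between 1 and 10 CPM. In aggressive forebrain 2 members had a mean under 1 CPM, 78 lay between 1 and 10, 101 between 10 and 100, and 19 at 100 or more, so most members were detected there at a lower level. In 169 members every aggressive cortex library was above every aggressive forebrain library, against 7.41% of all 12695 genes, which the rule itself brings about.

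ENSCAFG00000003665 ranked first, with a rule difference of 6.04 log2 units. Its lowest, median and highest values were 1212, 1528 and 1798 CPM in aggressive cortex and 1.63, 10.3 and 614 CPM in aggressive forebrain. ENSCAFG00000003122 ranked next, at 93.9, 145.5 and 184.5 CPM in aggressive cortex and 0.104, 1.01 and 42.3 CPM in aggressive forebrain. In both genes the regions did not overlap in aggressive foxes, but the forebrain libraries spread far more widely than the cortex libraries. At the lower end of the list, ENSCAFG00000006281 and ENSCAFG00000010207 had differences of 1.573 and 1.571 log2 units, and the first genes outside it, ENSCAFG00000001567 and ENSCAFG00000017859, had 1.570 and 1.569. The boundary of the list is therefore a point in a continuous range.

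Whether these genes are also higher in the cortex of tame foxes was asked with the 12 tame cortex and 10 tame forebrain libraries, which the rule did not use. Nearly all were. The mean log2(CPM+1) was higher in tame cortex than in tame forebrain for 200 of 200 members, against 28.2% of all genes, with a median difference of 1.84 log2 units against -0.32 over all genes. In edgeR's quasi-likelihood test over 12658 genes, all but 12 of the 200 members (94.0%) were higher in tame cortex at an adjusted p under 0.05 and 0 were lower. The background was 22.1% of all genes higher and 21.5% lower by the same call. The median log2 fold change (tame cortex over tame forebrain) was 2.15 over the members and -0.078 over all genes tested. In this scaled fit it was positive for 195 members and negative for 5, against 45.0% of all genes positive. The number called was the same without the 5 cortex libraries that stand apart, and without ID483, while the share of all genes called in either direction was 57.7% and 41.3%, against 43.5% with all libraries.

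The size of the difference followed the rule's order. Members ranked 1 to 50 had a median tame log2 fold change of 2.87, those ranked 51 to 100 had 2.37, those ranked 101 to 150 had 1.98 and those ranked 151 to 200 had 1.67. The calls were 48, 49, 47 and 44 of 50. Ranked in the same way on the tame libraries alone, 146 of the 200 members were among the 200 largest differences, which is 73.0% of either list, and 177 were among the 400 largest. Without the 5 cortex libraries that stand apart, 161 members were among the 200 largest. In 115 members every tame cortex library was above every tame forebrain library, against 4.09% of all genes.

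**Figure D1:**
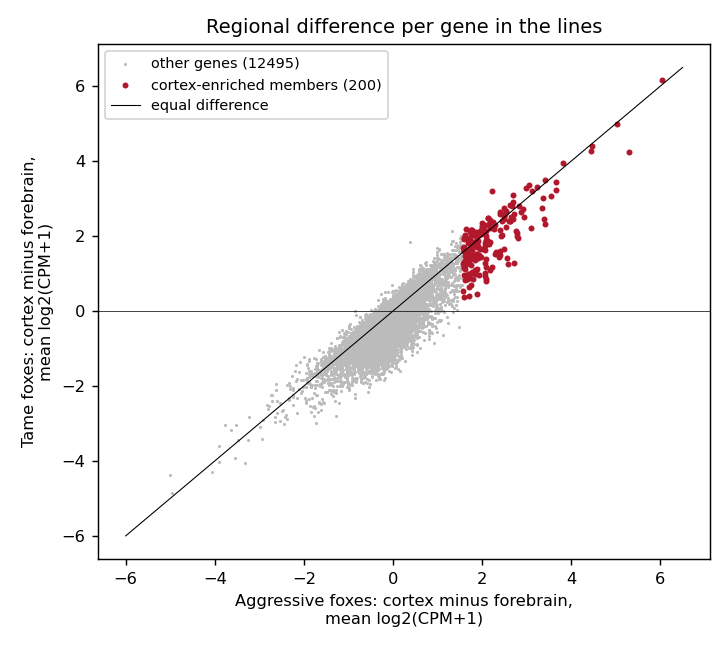
Each point is a gene, placed by its cortex minus forebrain difference in mean log2(CPM+1) in aggressive foxes (x axis, 12 against 12 libraries) and in tame foxes (y axis, 12 against 10 libraries); red points are the 200 members, chosen on the x axis, and the line marks equal differences. All 200 members lie above 0 on the y axis, with a median of 1.84.

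The smallest p-values among members in tame foxes belonged to genes with little spread. ENSCAFG00000019134 had a lowest, median and highest value of 232.5, 323 and 363 CPM in tame cortex and 30.7, 38.03 and 82.5 CPM in tame forebrain. The groups did not overlap, and the cortex was higher by 2.97 log2 units (SE 0.17, edgeR adjusted p = 3.08e-11). ENSCAFG00000029799 stood at 35.5, 47.1 and 54.6 CPM in tame cortex and at 9.79, 11.9 and 16.2 CPM in tame forebrain. Again no forebrain library reached the lowest cortex library (difference 2.12 log2 units, SE 0.12, edgeR adjusted p = 3.08e-11). ENSCAFG00000003665, the member ranked first, stood at 1421, 1649 and 3157 CPM in tame cortex and 1.97, 9.18 and 661 CPM in tame forebrain. Its log2 fold change was 3.996, but the wide forebrain spread gave an SE of 0.93 (edgeR adjusted p = 0.00135).

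Of the 12 members that did not pass the test in tame foxes, 9 shared a pattern across forebrain libraries. In these 9, the same 7 forebrain libraries held the 7 highest values, set off from the other 15 by at least 1 log2 unit. The 7 were aggressive libraries ID530, ID536 and ID540 and tame libraries ID483, ID484, ID486 and ID541, so both lines were among them. This pattern was described after the values were seen, and the 7 libraries were read from these genes, so it carries no test. It was found in 17 of 12695 genes (0.134%), 9 of them members, and the gap between the libraries ran from 1.16 to 2.66 log2 units in the 9.

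ENSCAFG00000015051 shows the step. Its forebrain values were 230.6 CPM in ID483, 167 in ID530, 143 in ID484, 126 in ID540, 77.9 in ID541, 38.1 in ID536 and 19.04 in ID486. The other 15 forebrain libraries lay between 1.57 and 5.57 CPM. All 24 cortex libraries lay between 9.24 and 50.9 CPM, with a median of 26.03. Thus 6 of the 7 libraries were above the cortex median and the other 15 forebrain libraries were below every cortex library. The fold change of tame cortex over tame forebrain was -0.70 on the log2 scale (SE 0.70, edgeR adjusted p = 0.433), although 6 of the 10 tame forebrain libraries were below every tame cortex library. Without ID483 it was 0.073, and limma-voom with sample quality weights gave 1.96 and passed (adjusted p = 0.00139).

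ENSCAFG00000015418, named after its values were seen because it ranked highest of the 9, had 26.0 to 273 CPM in the 7 libraries and 0.111 to 3.42 CPM in the other 15. Its cortex values lay between 18.8 and 63.8 CPM. Over the 9 genes, the median value was 167 CPM in ID530, 151 in ID483, 126 in ID540 and 96.5 in ID484. It was 56.4 in ID541, 38.1 in ID536 and 20.6 in ID486. It ranged from 0.717 to 4.35 CPM across the other 15 forebrain libraries and from 9.24 to 50.9 CPM across the cortex libraries. In ID483, ID484, ID530, ID540 and ID541 all 9 genes were above their cortex median. In ID536 8 were, and in ID486 0 were.

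**Figure D2:**
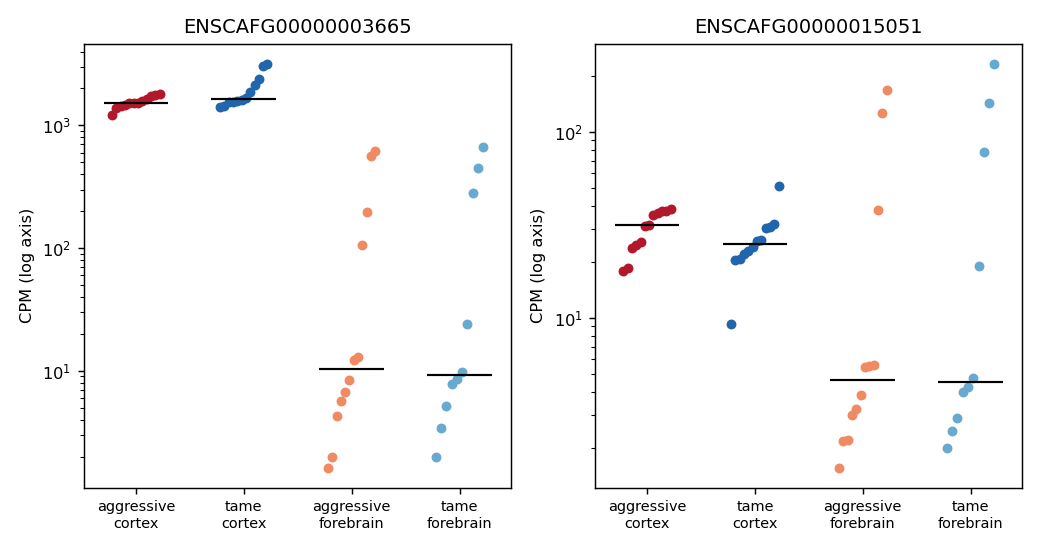
CPM on a log axis of the first-ranked member (left) and of a member with a step between forebrain libraries (right), one point per library, with a bar at each group's median. The left gene has forebrain values up to 661 CPM and no overlap with cortex; in the right gene forebrain values reach 230.6 CPM, above all cortex libraries.

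The members without this step also varied together across forebrain libraries, in a partly different set. In tame ID486, 180 of them were above their own median over the 22 forebrain libraries, in aggressive ID533 177 were, in tame ID541 162 and in aggressive ID530 156. At the other end, 28 were above it in aggressive ID537, 34 in aggressive ID534 and 43 in tame ID482. The share of all genes above their own median was not counted. With the step genes included, 77 members lay over 1 log2 unit above their forebrain median in ID486, against 0.961% of all genes. The values were 63 and 0.756% in ID533, 62 and 2.36% in ID530, and 56 and 1.58% in ID541. In ID483 they were 30 and 5.69%. The median deviation of the members without the step was 0.79 log2 units in ID486, 0.75 in ID533 and 0.57 in ID541. ID533 was among the highest here and was not among the 7 libraries of the step. Of the libraries with the highest step values, ID530 deviated by 0.51 and ID483 by -0.050.

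High-ranked members moved most. In ID486 the 50 members ranked first had a median deviation of 1.44 log2 units, against 0.69 for the 50 ranked last. The values were 1.35 and 0.56 in ID533, 1.30 and 0.41 in ID530, and 0.97 and 0.47 in ID541. For ENSCAFG00000003665 the forebrain values were 661 CPM in ID486, 614 in ID533, 564 in ID530, 449 in ID541, 282 in ID491, 196 in ID540 and 106 in ID536. The remaining 15 lay between 1.63 and 23.9 CPM. Unlike the 9 genes of the step, it stayed below the lowest cortex library, at 1212 CPM, in every forebrain library.

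Genes enriched in the opposite direction were lower in some of the same libraries. Of the 200 genes with the largest excess of forebrain over cortex by the same rule, 29 were above their own forebrain median in ID486, 32 in ID533 and 53 in ID530, the lowest 3 of the 22 libraries. In ID541 84 were. No share of all genes above their own median was counted beside these numbers. Whether the amount of cortical or other neighbouring tissue in the dissected pieces took part in these differences was not tested.

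**Figure D3:**
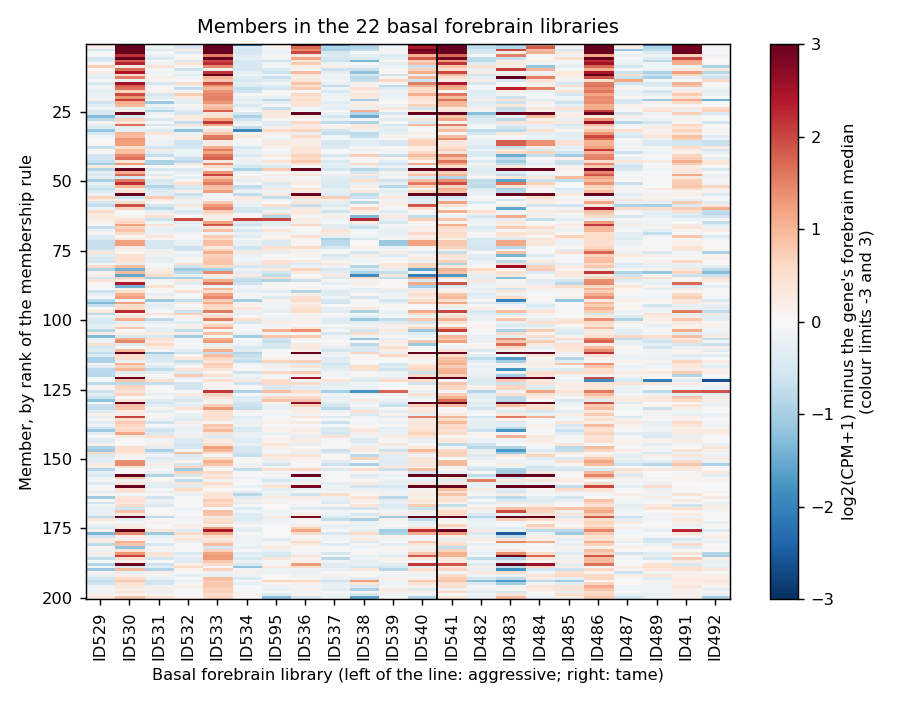
Rows are the 200 members in rule order, columns the 22 basal forebrain libraries, and colour gives log2(CPM+1) minus the gene's median over these libraries (red higher, blue lower). Columns ID486, ID533, ID541 and ID530 are red over most rows, and single rows stand out in the 7 libraries of the step.

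Summarised per library, the median over the members of log2(CPM+1) was 5.85 ± 0.105 in aggressive cortex (SD, n = 12) and 5.76 ± 0.172 in tame cortex (SD, n = 12). It was 3.71 ± 0.467 in aggressive forebrain (SD, n = 12) and 3.87 ± 0.46 in tame forebrain (SD, n = 10). Every cortex library was above every forebrain library, and within each region the lines overlapped. The lowest, median and highest values were 5.41, 5.82 and 5.93 in tame cortex and 3.34, 3.79 and 4.71 in tame forebrain. The members took 2.34% to 3.13% of all counts in cortex libraries and 0.483% to 1.22% in forebrain libraries.

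In aggressive foxes these genes varied more between forebrain libraries than between cortex libraries. There the median SD of a member's log2(CPM+1) was 0.52 in forebrain and 0.23 in cortex, where the medians over all genes were 0.19 and 0.17. In tame foxes it was 0.53 in forebrain and 0.41 in cortex, against 0.22 and 0.41 over all genes, so the tame cortex libraries also varied widely, for members and all genes alike. An SD over 1 was found for 22 members in aggressive forebrain and 0 in aggressive cortex, against 0.701% and 0.063% of all genes. In tame foxes it was found for 28 members in forebrain and 28 in cortex, against 1.09% and 14.4% of all genes. The median member averaged 142 counts in an aggressive forebrain library and 685 in an aggressive cortex library. In aggressive cortex, library ID238 was the lowest, with a member median of 5.599 and 23 of 200 members above their own cortex median. The share of all genes above theirs was not counted. Leaving ID238 out of the rule kept 199 of the 200 members.

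**Figure D4:**
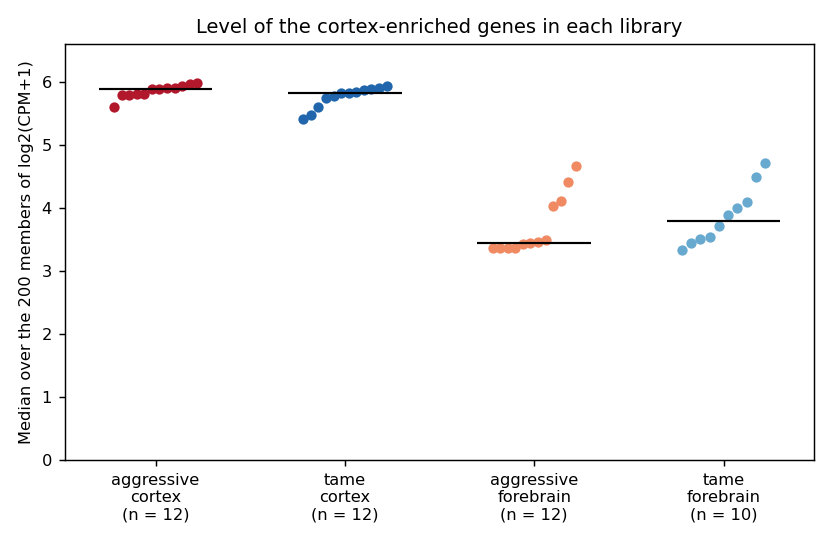
Each point is a library, placed by the median of log2(CPM+1) over the 200 members, with a bar at the group's median; the groups have 12, 12, 12 and 10 libraries. Cortex libraries lie between 5.41 and 5.98 and forebrain libraries between 3.34 and 4.71, with a few high forebrain libraries in each line.

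The lines were compared next within each region. These tests use the aggressive libraries that chose the members, and that choice favours genes that happened to be high in aggressive cortex or low in aggressive forebrain. In cortex, 2 of 200 members were higher in tame foxes at an adjusted p under 0.05 and 0 were lower (edgeR, 12705 genes). The background was 0.433% of all genes called in either direction, with 0.338% called higher and 0.0945% called lower in tame. At an unadjusted p under 0.05 there were 73 members, 58 higher and 15 lower in tame, or 36.5% against 34.6% of all genes. All genes were not split by direction at this threshold. At any p, 58.0% of members had a positive fold change, against 51.4% of all genes. The median log2 fold change of tame over aggressive was 0.085 over the members and 0.018 over all genes, and the former was 0.046 without ID238 and 0.050 without ID187. The unadjusted count fell to 46 without ID187 and to 43 without ID191. Thus few members passed in this fit, at a share of unadjusted calls near the background. DESeq2 gave unadjusted shares of 38.0% of members and 38.3% of all genes. With limma-voom and sample quality weights the shares were 17.5% of members and 10.9% of all genes, so nearness to the background depended on the test.

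ENSCAFG00000013049, ranked 52 by the rule, had a lowest, median and highest value of 18.1, 31.4 and 42.3 CPM in tame cortex and 13.6, 22.1 and 28.7 CPM in aggressive cortex. The groups overlapped, and 10 of 12 tame libraries were above the aggressive median (log2 fold change 0.66, SE 0.13, edgeR adjusted p = 0.0186). In the forebrain tame libraries differed from aggressive ones by 0.33 log2 units (SE 0.31, edgeR adjusted p = 0.645), and the line-by-region interaction did not pass (edgeR adjusted p = 0.527). ENSCAFG00000007149 stood at 24.5, 45.1 and 55.5 CPM in tame cortex and 22.3, 31.9 and 47.6 CPM in aggressive cortex. Here 11 of 12 tame libraries were above the aggressive median (log2 fold change 0.53, SE 0.12, edgeR adjusted p = 0.043). Without the 5 cortex libraries that stand apart, neither passed, although both kept their direction. ENSCAFG00000013049 then differed by 0.57 log2 units (SE 0.13, edgeR adjusted p = 0.0709) and ENSCAFG00000007149 by 0.41 (SE 0.11, edgeR adjusted p = 0.147), with fewer libraries in the test. Leaving out 1 library at a time ended the call of ENSCAFG00000007149 in 17 of 24 fits.

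ENSCAFG00000006655, ranked 17, had the smallest p among members lower in tame cortex and did not pass. Its values were 20.5, 25.3 and 30.2 CPM in tame cortex and 29.9, 34.9 and 41.2 CPM in aggressive cortex. The groups almost separated, as 0 of 12 tame values exceeded the aggressive median (log2 fold change -0.37, SE 0.088, edgeR adjusted p = 0.0519). Without the 5 cortex libraries it was the single member called, with a difference of -0.48 log2 units (SE 0.079, edgeR adjusted p = 0.00937), where 0.235% of all genes were called. Then 19 members had an unadjusted p under 0.05, or 9.5% against 7.09% of all genes. The median log2 fold change over the members was then -0.024.

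The tame cortex libraries that stand apart did so for the members as for all genes, in both directions. Against the range of the 12 aggressive cortex libraries, 71 members were above and 84 below in ID191, and 69 above and 80 below in ID187. The numbers were 70 and 50 in ID186, 57 and 40 in ID190, and 36 and 63 in ID182. In the other 7 tame libraries, 8 to 17 members were above and 4 to 39 below, the 39 in ID185. That is 4.0% to 8.5% above and 2.0% to 19.5% below. Over all genes it was 2.79% to 19.8% and 4.42% to 12.3%. In ID191 35.5% of members were above and 42.0% below, against 29.1% and 51.5% of all genes. In ID186 35.0% were above and 25.0% below, against 26.1% and 36.99% of all genes. In ID182 the shares were 18.0% and 31.5%, against 32.0% and 37.3%. ID185 had 19.5% of members below against 8.22% of all genes, and 4.5% above against 19.8%. The members' share of counts in these 5 libraries was 2.68% to 3.13%, and 2.50% to 2.99% in the other 7.

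**Figure D5:**
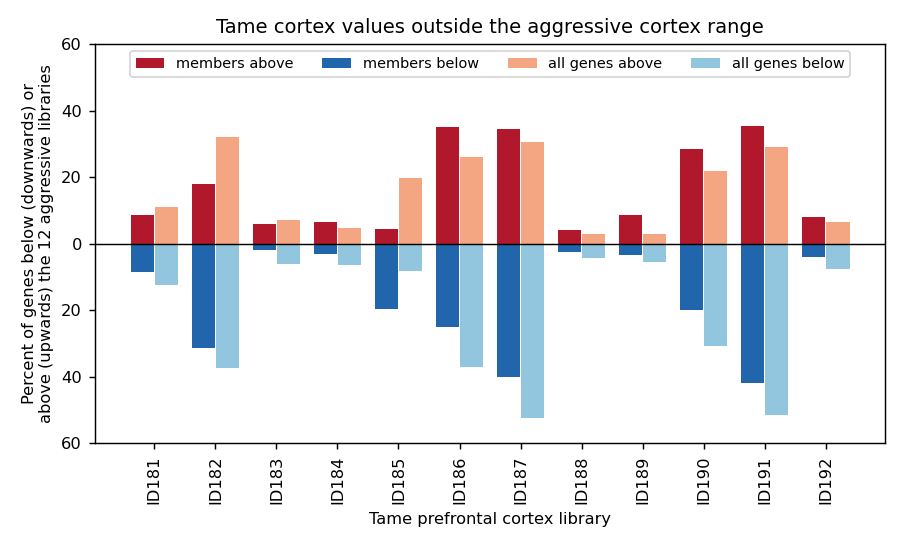
For each tame cortex library, bars give the percent of genes above (upwards) or below (downwards) the range of the 12 aggressive cortex libraries, dark for the 200 members and light for all 12695 genes. ID191 and ID187 have the largest share of members outside the range: in ID191 35.5% were above and 42.0% below, against 29.1% and 51.5% of all genes.

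In the forebrain, 193 of the 200 members passed the filter on low counts, and the other 7 had a median of at most 0.693 CPM over the forebrain libraries. Of the 193, 1 was higher in tame foxes at an adjusted p under 0.05 and 0 were lower (edgeR, 12915 genes). The background was 0.0929% of all genes called in either direction, with 0.0697% called higher and 0.0232% called lower in tame. A total of 18 members had an unadjusted p under 0.05, which is 9.33% against 11.5% of all genes. The median log2 fold change was 0.104 over the members tested and 0.0099 over all genes. A positive fold change was found for 71.0% of the members tested, against 52.8% of all genes. The sign of the members' median rested on 1 library: without ID486 it was -0.043, with 84 of 193 members positive against 137 with all libraries. Without ID541 it was 0.050, without ID530 0.18 and without ID533 0.19.

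The gene called in forebrain was again ENSCAFG00000007149, at 9.95, 16.6 and 23.6 CPM in tame forebrain and 7.01, 9.06 and 12.1 CPM in aggressive forebrain. All 10 tame libraries were above the aggressive median, and the groups overlapped in part of their ranges (log2 fold change 0.90, SE 0.14, edgeR adjusted p = 0.00616). It is the 1 member called in both regions. ENSCAFG00000016368 had the smallest p among members lower in tame forebrain and did not pass, at 0.615, 1.37 and 3.86 CPM in tame and 0.76, 2.44 and 12.1 CPM in aggressive forebrain. Only 1 of 10 tame libraries was above the aggressive median (log2 fold change -1.59, SE 0.45, edgeR adjusted p = 0.234).

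The line-by-region interaction asked whether the cortex minus forebrain difference differed between the lines. It shares the aggressive libraries with the rule. In edgeR's test over 12695 genes, 0 members and 0% of all genes passed (smallest adjusted p among members 0.327), and DESeq2 and limma-voom with sample quality weights also called 0 members. At an unadjusted p under 0.05 there were 19 members, 5 with a larger and 14 with a smaller difference in tame, or 9.5% against 14.6% of all genes. At any p, 44.0% of members had a larger difference in tame, against 48.0% of all genes. Without the 5 cortex libraries that stand apart, 61 members had a larger difference in tame. The unadjusted shares in that edgeR fit were 6.5% of members and 6.10% of all genes. With limma-voom and sample quality weights, 49 members had a larger difference. There 20 of 200 members and 575 of 12695 genes had an unadjusted p under 0.05, so the comparison with the background depended on the fit. Without ID486, 108 members had a larger difference. The smallest p-values were those of ENSCAFG00000016368, with an interaction of 1.84 log2 units (SE 0.45, edgeR adjusted p = 0.327), and ENSCAFG00000015729, with -0.98 (SE 0.32, edgeR adjusted p = 0.327). ENSCAFG00000015729 stood at 3.34, 24.3 and 29.5 CPM in tame cortex and 19.1, 27.4 and 33.3 CPM in aggressive cortex, with its lowest value in ID191. Without the 5 cortex libraries its interaction was -0.45, and that of ENSCAFG00000016368 was 1.41. The aggressive forebrain values of ENSCAFG00000016368 were split. They lay between 9.76 and 12.1 CPM in ID532, ID534, ID538 and ID595, and at 3.58 CPM or less in the other aggressive libraries. Its interaction ran from 1.63 to 2.05 log2 units over fits without 1 library. Whether it depends on these high libraries together was not tested. In the forebrain ENSCAFG00000015729 stood at 7.91, 11.1 and 14.1 CPM in tame and 7.2, 7.95 and 10.7 CPM in aggressive foxes. The direction of a smaller difference in tame is the one that choosing genes on the aggressive libraries favours.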

How the data were processed

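For either region the authors deposited a single table of estimated counts by gene, with dog Ensembl identifiers per the file headers. The submitters' processing notes name CASAVA 1.8.2, FastQC, Trimmomatic, BWA, bedtools, edgeR and the dog build canFam3, without roles. Counts were rounded. All columns of counts belonged to a labelled sample (0 without one). The identifiers matched no entry of the RefSeq gene table (assembly VulVul3), so the planned marker lists were not tested and no sequence is shown. A total of 8 members had fractional counts, and 8 shared all their values in at least 1 region with another member, so that reads of copies may not be separated.

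The members, lists and alternatives were chosen with earlier results of these data known. Each comparison was fitted over all genes: filterByExpr (minimum count 10), TMM scaling and the robust quasi-likelihood test of edgeR 4.0.16 (R 4.3.3), with Benjamini-Hochberg adjustment and a threshold of 0.05. The SE is the log2 fold change divided by the square root of F. The test was also run on simulated counts with known changes, drawn independently for each library. These held no shifts shared by many genes, so they cannot vouch for the test where libraries stand apart. Alternatives used other scalings and filters, DESeq2 1.42.0, limma-voom (limma 3.58.1), other member lists and fits without 1 library. The labels call the libraries separate samples, and each column of counts is headed by the word fox and the identifier. The p-values measure the spread between these libraries. Genes named are the first and last of the rule and, per test and direction, up to 2 with the smallest p-value among those past the threshold, or 1 where none passed. ENSCAFG00000015418 and the step between forebrain libraries were picked after their values were seen. CPM values use the column totals of the tables.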

Additional observations from a re-analysis of the deposited data

Results flagged for a closer look

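Of 16 values checked over the 10 tame forebrain libraries, 4 had a library far from the others, where about 1 in 20 would by chance. That rate is for independent values with a normal spread. The members varied together between these libraries, so it need not hold here. ENSCAFG00000003122 stood at 59.1 CPM in ID486, with the next library at 18.9 and the lowest at 0.0895 CPM. ENSCAFG00000001567, the first gene outside the list, stood at 208 CPM in ID486, with the next at 144 and the lowest at 106 CPM. ENSCAFG00000006655 stood at 17.8 CPM in ID483, with the next at 9.73 and the lowest at 2.34 CPM. ENSCAFG00000016368 stood at 3.86 CPM in ID541, with the next at 1.82 and the lowest at 0.615 CPM. The larger groups, of 12 libraries, had no such check.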

How the results depend on the processing

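The number of members higher in tame cortex than tame forebrain stayed within 1.5 times the reported number in 22 fits that each left out 1 library and under every other scaling, filter and test run, with 200 called by limma-voom with sample quality weights, which called 64.4% of all genes. It was 97 of the first 100 and 362 of the first 400 genes of the rule. ENSCAFG00000015051 changed sign with limma-voom and sample quality weights (1.96, adjusted p = 0.00139) and without ID483 (0.073), in a range of -0.84 to 0.073 over fits without 1 library. A replicate block by the last 2 digits of the identifier, over 9 tame pairs, gave 176 members, fewer than the same libraries without the block. For ENSCAFG00000015051 it gave 1.91, against -0.53 without the block in the same libraries. Deviations of these pairs correlated from -0.29 to 0.34, 4 of 9 over 0.1, and 3 of 9 forebrain libraries matched their own number best. These values cannot tell whether equal numbers mark the same fox, because some of the tame cortex libraries stand apart over many genes. The fits without the block did not use the numbers as pairs. For the interaction the block gave 0 members, as did all other settings and 46 fits without 1 library.

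Between lines in cortex, the members called were 15 with DESeq2 (11 higher, 4 lower), 9 with limma-voom and sample quality weights (6 higher, 3 lower), 1 without the 5 cortex libraries (lower), 1 among the first 100 and 4 among the first 400. All genes called also rose, to 5.54% with DESeq2 and 1.28% with limma-voom, against 0.433% in the main fit. In each of these fits the share of the 200 members called was above the share of all genes called. Members called ranged from 1 to 5 over 24 fits without 1 library, 5 without ID181. In forebrain DESeq2 called 3 (0.41% of all genes), the first 100 held 0, and each fit without 1 library called 1. The cause was not tested. Without each aggressive library in turn the rule kept 193 to 199 members, except without ID530, ID538 or ID540, when it kept 1 fewer than 193. With TMM-scaled totals it kept 198, and with a pseudocount of 0.1 all but 19. Members under 1 CPM in forebrain are limited by depth.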
